A study of Mus musculus with 6 samples.

Results

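Regulatory T cells (Tregs), the CD4 T cells that restrain other immune cells, share a set of genes that are read more in them than in other CD4 T cells. The genes described here are 10 of that signature which are neither lineage transcription factors nor receptors of the interleukin 2, tumour necrosis factor or checkpoint families: Izumo1r, Gpr83, Capg, Cd81, Swap70, Socs2, Rgs16, Plagl1, Ecm1 and Penk. They were chosen by name, with earlier results of these data known. Each was found under its symbol, so they are 10 of the 23725 genes in the table. Libraries were made from C57Bl/6 mice in which the gene of myelin oligodendrocyte glycoprotein (MOG) is knocked out in the whole animal (MOG KO, 3 libraries), and they were set against C57Bl/6 wild-type mice (WT, 3 libraries). Mice of both genotypes had been immunised with MOG, a protein of the myelin sheath that is a self protein in WT mice and is absent from MOG KO mice. Each library came from 500 lymph node Tregs, and the labels give neither age nor sex and do not say whether each replicate was a separate mouse, so the p-values measure the spread between libraries, which may be partly technical. The comparison asks how gene expression in Tregs differs when the animal itself lacks the protein used for immunisation.

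The 10 genes have different roles. Some encode proteins at the cell surface: Izumo1r (also called Folr4 or Juno) is a folate receptor relative that does not bind folate and serves as the egg's receptor for sperm, Gpr83 is a G protein-coupled receptor, and Cd81 is a tetraspanin, a membrane protein that organises other membrane proteins into clusters. Others act inside the cell: Socs2 restrains cytokine receptors and is itself induced by STAT5, Rgs16 shortens G protein signals, Swap70 links phosphoinositides to Rac and actin, Capg caps the growing ends of actin filaments, and Plagl1 is an imprinted zinc finger transcription factor. The last 2 are secreted: Ecm1 is an extracellular matrix glycoprotein, and Penk encodes proenkephalin, the precursor of the enkephalin opioid peptides. In mouse Tregs several of these genes are known to be raised by Foxp3 or by signals through the T cell and interleukin 2 receptors.

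Gene counts totalled 3450623 to 4361315 in MOG KO libraries and 2717969 to 4472549 in WT libraries. Levels below are the authors' reads-per-million (RPM) values, given for replicates 1, 2 and 3 of MOG KO and then of WT, and a gene is called present at 10 RPM or more. The floor, the level that a count of 0 still allows, is the RPM of 3 counts, 0.688 to 0.869 in MOG KO libraries and 0.671 to 1.10 in WT libraries. It covers counting error only. T cell markers summed to 2120 to 2581 RPM in MOG KO and 1904 to 2686 RPM in WT. The CD8 and NK cell markers summed to at most 0.290 RPM in MOG KO and 0.368 RPM in WT, with 5 of 6 at 0 in every library, and the 8 myeloid and dendritic cell markers to 5.78 to 13.0 RPM in MOG KO and 5.14 to 15.5 RPM in WT. WT replicate 3 stood apart, with 2701 genes present, where the other 5 libraries had 3265 to 4440. In it Foxp3, the factor that defines the lineage, was at 8.22 RPM and Ctla4 at 74.3 RPM, the lowest value of each. Il2ra had 708 RPM there, and Ikzf2 had 1294 RPM, its highest value. These 4 Treg markers summed to 2108 to 2974 RPM in MOG KO and 2084 to 3141 RPM in WT, with 2084 RPM in WT replicate 3. Because these are bulk samples, fewer cells with a transcript and less of it per cell cannot be told apart.

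The 10 genes ranged from read in every library to read in none. Capg and Izumo1r were present in all 6 libraries, Cd81 in 5, Swap70 in 4, Ecm1 in 3, Gpr83 and Socs2 in 2 each and Penk in 1, while Rgs16 and Plagl1 had 0 counts in all 6. Their 60 values fell into separate ranges: 29 were at 12.2 RPM or more, 31 were at 2.21 RPM or less (19 of them with 0 counts), and 0 lay between. Values in such a range were rare in other genes too: of the values of all 7909 genes present in at least 1 library, 3.09% lay at 3 to 10 RPM. MOG KO replicates 1, 2 and 3 had 6, 4 and 5 of the 10 genes present, and WT replicates 1, 2 and 3 had 5, 6 and 3. WT replicate 3 had the fewest, and without it MOG KO and WT libraries held 4 to 6 and 5 to 6 of the genes.

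**Figure D1:**
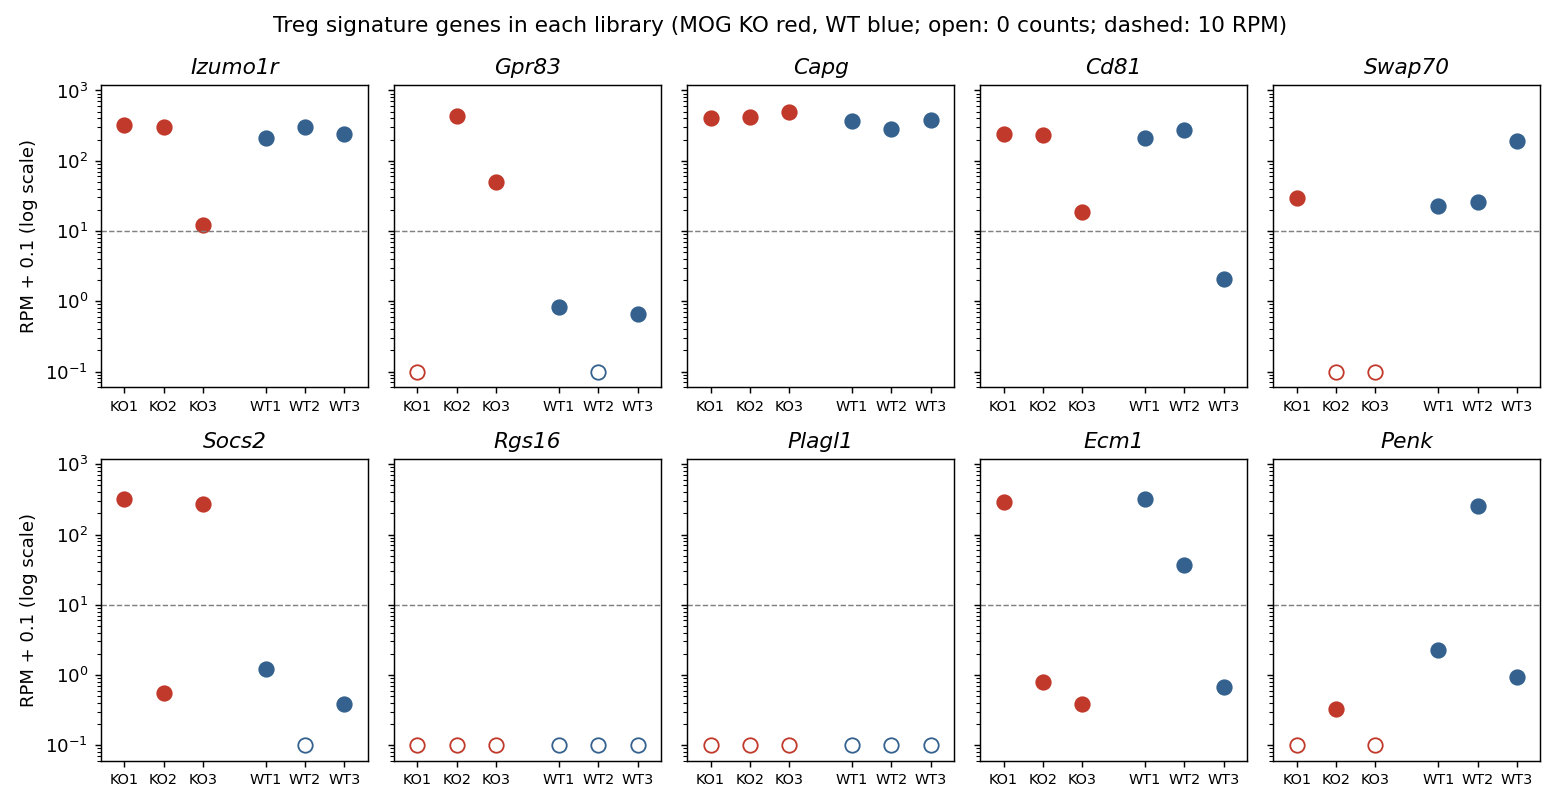
Level of each of the 10 genes in each library, as RPM + 0.1 on a log axis (MOG KO replicates red at left, WT replicates blue at right; open circles mark 0 counts and the dashed line 10 RPM). Capg is level across all 6 libraries, whereas the other genes read in some libraries fall to 2.21 RPM or less in others, apart from Izumo1r, whose lowest value is 12.2 RPM.

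Izumo1r (Entrez 64931) and Gpr83 (Entrez 14608) are next-door genes on chromosome 9. On GRCm38, Gpr83 runs from 14860210 to 14870789 on the plus strand and Izumo1r from 14885814 to 14903949 on the minus strand, so their 3′ ends face each other across 15024 bases with 0 annotated genes between them. Izumo1r had 325, 301 and 12.2 RPM in MOG KO and 211, 299 and 239 RPM in WT. Of these 6 values 5 lay within 211 to 325 RPM, and MOG KO replicate 3 alone was far lower, on 42 counts. The groups overlapped, and the log2 fold change of MOG KO minus WT was -0.31 ± 1.63 (SE, n = 3 per group; 95% interval -4.09 to 3.48; adjusted p = 1.00 in edgeR). It changed sign to 0.27 without MOG KO replicate 3.

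Gpr83 had 0, 434 and 50.4 RPM in MOG KO and 0.736, 0 and 0.567 RPM in WT. It was read in MOG KO replicates 2 and 3 and was at or under the floor in the other 4 libraries, so the groups overlapped at 0. The 2 neighbours shared the same state, present or not, in 2 of 6 libraries. Pooled over libraries, Gpr83 had 2065 counts in MOG KO and 4 in WT, a level 456 times that in WT (counting interval 178 to 1675), which does not carry the spread between libraries. Of the MOG KO counts, 91.6% came from replicate 2.

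The stretches of 250 bases before their RefSeq starts are shown because the neighbours differ in their number of CpG. The RefSeq start of Gpr83 is that of the coordinates above, and that of Izumo1r lies 182 bases inside the gene as GENCODE draws it. CpG dinucleotides, the sites of DNA methylation, are in capitals (RefSeq, GRCm38.p6, 5′ to 3′ on the strand of the gene, Izumo1r at chr9:14903768-14904017 and Gpr83 at chr9:14859960-14860209).
Izumo1r: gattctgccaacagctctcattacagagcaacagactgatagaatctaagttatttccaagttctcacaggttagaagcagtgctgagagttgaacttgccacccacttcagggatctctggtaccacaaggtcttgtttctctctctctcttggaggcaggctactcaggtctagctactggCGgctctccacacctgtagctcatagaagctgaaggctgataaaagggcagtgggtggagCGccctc
Gpr83: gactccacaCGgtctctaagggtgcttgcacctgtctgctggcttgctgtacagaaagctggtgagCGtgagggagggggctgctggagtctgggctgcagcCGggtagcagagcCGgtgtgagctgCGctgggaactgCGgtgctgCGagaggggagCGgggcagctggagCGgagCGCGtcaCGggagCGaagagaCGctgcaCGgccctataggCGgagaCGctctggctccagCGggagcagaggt
The Izumo1r stretch has 2 CpG and that of Gpr83 18, where the median of 32851 mouse promoters is 6. Of those promoters, 18.8% have fewer CpG than Izumo1r and 78.3% fewer than Gpr83. No methylation was measured here, so this describes the sequence only.

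The relatives of Izumo1r were not present in any library. Folr1 had 1 library above 0, WT replicate 3 at 0.283 RPM, Folr2 had 0 counts throughout, and Izumo1, the sperm protein that Izumo1r binds in fertilisation, had 0 counts as well. Cd9, the tetraspanin that eggs need for fusion, reached at most 2.03 RPM in MOG KO and 4.05 RPM in WT.

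Cd81 (Entrez 12520; GRCm38 chromosome 7, 143052739 to 143067934, plus strand) had 238, 234 and 18.5 RPM in MOG KO and 213, 271 and 1.98 RPM in WT. In each genotype 2 libraries lay between 213 and 271 RPM and replicate 3 was much lower, so the groups overlapped. The log2 fold change was 0.01 ± 2.04 (SE, n = 3 per group; 95% interval -4.74 to 4.75; adjusted p = 1.00 in edgeR), and without WT replicate 3 it was -0.53. Of 11 other tetraspanins listed, 3 were present in all 6 libraries: Cd53, Cd82 and Cd37. Cd53 had 435, 340 and 605 RPM in MOG KO and 302, 451 and 368 RPM in WT. Others swung between libraries as Cd81 did. Tspan32 was at 1.13 RPM in WT replicate 3 and at 126 RPM or more in the other 5 libraries, Tspan13 was present in 4 libraries and Tspan31 in 3. Tspan14, which escorts the protease ADAM10, had 0.462, 468 and 587 RPM in MOG KO and 2.58, 3.58 and 450 RPM in WT. Among 7 tetraspanins tested beside Cd81, 0 passed, 4 had positive and 3 negative values, and the median log2 fold change was 0.24. Cd63 and Cd9 did not reach 10 RPM in any library.

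Capg (Entrez 12332; GRCm38 chromosome 6, 72544391 to 72562983, plus strand) was the steadiest of the 10. It had 402, 420 and 486 RPM in MOG KO and 370, 283 and 384 RPM in WT, or 436 ± 44.5 RPM in MOG KO and 346 ± 54.6 RPM in WT (SD, n = 3 each). In RPM all 3 MOG KO libraries lay above all 3 WT libraries, which was also true of 5.97% of the 4088 genes tested and of 8.66% of the 704 genes present in every library. The difference of 90.2 RPM had an exact two-sided permutation p of 0.1, the smallest that 3 against 3 allows. Such full separation always gives this value, so it adds nothing to the ordering. After edgeR's TMM scaling, which corrects library sizes for a few dominant genes, the groups overlapped, with 450, 501 and 584 TMM-scaled counts-per-million (CPM) in MOG KO and 436, 325 and 516 CPM in WT. In the fit the log2 fold change was 0.27 ± 0.84 (SE, n = 3 per group; 95% interval -1.68 to 2.21; adjusted p = 1.00 in edgeR). In edgeR it stayed between 0.13 and 0.44 when any 1 library was left out. DESeq2 gave -0.13 without WT replicate 2 and positive values without each of the others. The coefficient of variation of Capg over the 6 libraries was 17.0%, against a median of 44.1% for the 704 genes present in all of them, of which 53 varied less. Of the same 704 genes, 427 varied less than Izumo1r. The coefficients of Gpr83, Swap70, Socs2, Ecm1 and Penk were 142% to 241%.

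Of 11 other genes listed for proteins that cap or cut actin filaments, Capza1, Capzb and Cfl1 (3 genes) were present in all 6 libraries. Capza1, a subunit of the heterodimeric capping protein, had 1777, 2960 and 2864 RPM in MOG KO and 1765, 1357 and 619 RPM in WT. In RPM its MOG KO values were all above its WT values, but after TMM scaling the groups overlapped, with 1989 CPM in MOG KO replicate 1 and 2081 CPM in WT replicate 1. Its log2 fold change was 1.00 ± 0.38 and did not pass (SE, n = 3 per group; adjusted p = 0.813 in edgeR). Its partner Capzb had 379, 375 and 455 RPM in MOG KO and 402, 411 and 460 RPM in WT. Cfl1, which encodes the filament-severing protein cofilin, had 315, 454 and 287 RPM in MOG KO and 397, 322 and 382 RPM in WT. Capza2 had 381, 574 and 1.45 RPM in MOG KO and 278, 222 and 362 RPM in WT. Twf2 was present in 4 libraries, Flii in 3, Svil and Gsn in 2 each and Twf1 in 0. Of 7 such genes tested beside Capg, 0 passed, with 4 positive and 3 negative values and a median of 0.06. Vil1 and Scin, epithelial and secretory cell members of the gelsolin family, had 0 counts in all 6 libraries.

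Swap70 (Entrez 20947; GRCm38 chromosome 7, 110221711 to 110283506, plus strand) had 29.6, 0 and 0 RPM in MOG KO and 22.4, 25.5 and 188 RPM in WT. It was present in all WT libraries, most strongly in replicate 3, and in MOG KO in replicate 1 alone, which lay above 2 of the 3 WT libraries. The log2 fold change was -3.21 ± 2.93 (SE, n = 3 per group; 95% interval -10.04 to 3.61; adjusted p = 1.00 in edgeR), -1.25 without WT replicate 3 and -11.33 without MOG KO replicate 1. Swap70 is also a gene of activated B cells, and 5 B and plasma cell markers in the table summed to 0, 130 and 1.16 RPM in MOG KO and 1.47, 206 and 87.3 RPM in WT. In WT replicate 3 that sum was Ms4a1, with Cd79a, Cd79b, Pax5 and Sdc1 at 0. In MOG KO replicate 2 and WT replicate 2 Cd79b made up 130 and 205 RPM of it, with Cd79a, Pax5 and Sdc1 at 0. The part of B cells in the Swap70 value was not tested. Of 5 partners or relatives of Swap70 listed, 3 were present in all 6 libraries: Rac1, Rac2 and Rhoa. Rac2 had 669, 693 and 600 RPM in MOG KO and 757, 642 and 757 RPM in WT. Def6, the closest relative of Swap70, had 0.693, 208 and 391 RPM in MOG KO and 443, 244 and 618 RPM in WT. Irf4, a transcription factor of activated lymphocytes, was present in 3 libraries, with 382, 768 and 2.03 RPM in MOG KO and 2.58, 587 and 1.98 RPM in WT. All 5 were tested and 0 passed, with 2 positive and 3 negative values (median -0.07).

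Socs2 (Entrez 216233; GRCm38 chromosome 10, 95385362 to 95417180, minus strand) had 318, 0.459 and 275 RPM in MOG KO and 1.10, 0 and 0.283 RPM in WT. It was read in MOG KO replicates 1 and 3 only, and MOG KO replicate 2 lay among the WT libraries. Pooled counts were 2326 in MOG KO and 4 in WT, a level 513 times that in WT (counting interval 200.3 to 1886), which again leaves out the spread between libraries. Other cytokine-induced members of the family were read in both genotypes. Cish had 247, 225 and 359 RPM in MOG KO and 501, 74.7 and 35.7 RPM in WT, and Socs3 408, 238 and 303 RPM in MOG KO and 147, 195 and 547 RPM in WT. Socs1 had 0, 216 and 190 RPM in MOG KO and 97.1, 101 and 0.283 RPM in WT. These 3 genes were the family members tested, and 0 passed (2 positive, 1 negative, median 0.43). Socs5 was read in WT replicate 1 alone, at 282 RPM, and Socs4, Socs6 and Socs7 stayed under 10 RPM everywhere.

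Rgs16 (Entrez 19734; GRCm38 chromosome 1, 153740349 to 153745468, plus strand) and Plagl1 (Entrez 22634; chromosome 10, 13060504 to 13131694, plus strand) had 0 counts in every library, as had 11408 of the 23725 genes. Their read levels are therefore known only to lie under the floors given above. Those floors cover counting error only, so the levels in the cells are not known. Of 9 other regulators of G protein signalling listed, 7 were present in at least 1 library and 0 in all 6, and Rgs12 and Rgs18 had 0 counts throughout. Rgs1, abundant in activated lymphocytes, had 133, 0.459 and 169 RPM in MOG KO and 136, 150 and 304 RPM in WT. Rgs3 had 517, 3.90 and 190 RPM in MOG KO and 877, 404 and 0.850 RPM in WT. Rgs14 had 3.00, 0.688 and 215 RPM in MOG KO and 274, 411 and 0.567 RPM in WT, and Rgs19 243, 72.7 and 0 RPM in MOG KO and 0.368, 221 and 11.3 RPM in WT. Among the 5 tested 0 passed, with 2 positive and 3 negative values (median -0.89).

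Few of the genes listed beside Plagl1 were present. Of 10 other genes of the PLAG family or of imprinted loci, 5 had 0 counts throughout, H19, Igf2, Dlk1, Grb10 and Plag1, and 2 were ever present. Igf2r, the receptor that clears insulin-like growth factor 2, had 168, 6.42 and 8.69 RPM in MOG KO and 226, 0.224 and 5.39 RPM in WT. Plagl2, a relative of Plagl1, had 0.462, 0.917 and 9.27 RPM in MOG KO and 86.5, 63.9 and 0.567 RPM in WT. Both were tested and neither passed (median -2.09).

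Ecm1 (Entrez 13601; GRCm38 chromosome 3, 95734147 to 95739569, minus strand) had 293, 0.688 and 0.290 RPM in MOG KO and 316, 36.9 and 0.567 RPM in WT. In both genotypes replicate 1 was high and replicate 3 near 0, but replicate 2 was near 0 in MOG KO and at 36.9 RPM in WT. The groups overlapped. The log2 fold change was -0.34 ± 2.83 (SE, n = 3 per group; 95% interval -6.94 to 6.26; adjusted p = 1.00 in edgeR). Its value followed single libraries, being 2.38 without WT replicate 1, 0.25 and 0.27 without MOG KO replicates 2 and 3, and -7.77 without MOG KO replicate 1. Ecm1 is also made by stromal and endothelial cells. The 6 markers of those cells summed to 461, 31.2 and 47.5 RPM in MOG KO and 95.3, 24.6 and 1.98 RPM in WT, highest in replicate 1 of each genotype as Ecm1 was. Pecam1, which leukocytes also carry, made up 461, 25.2 and 47.2 RPM of it in MOG KO and 89.4, 24.4 and 1.98 RPM in WT. The fibroblast collagen genes Col1a1 and Col1a2 were read at 2.75 and 3.21 RPM in MOG KO replicate 2, where Ecm1 had 0.688 RPM. They were at 2.21 and 3.68 RPM in WT replicate 1, where Ecm1 was highest. Both had 0 counts in the other 4 libraries, among them MOG KO replicate 1, where Ecm1 had 293 RPM. Pdpn and Pdgfrb were at 0 in all 6 libraries and Cdh5 reached at most 0.290 RPM in MOG KO and 0.224 RPM in WT. The part of such cells in the Ecm1 value was not tested.

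Penk (Entrez 18619; GRCm38 chromosome 4, 4133531 to 4138819, minus strand) had 0, 0.229 and 0 RPM in MOG KO and 2.21, 258 and 0.850 RPM in WT. WT replicate 2 held 99.2% of the WT counts. All 3 MOG KO libraries were below all 3 WT libraries, as for 3.38% of the 12317 genes with any count, but the WT values of replicates 1 and 3 rest on 6 and 3 counts, and 3 counts is the floor. From 1 count in MOG KO and 1163 in WT the pooled ratio was 0.000759 (counting interval 1.92e-05 to 0.00424), for counting error alone. The rest of the opioid system was not read at a level that could be called present. Pdyn, which encodes prodynorphin, Pcsk2, a convertase that cuts proenkephalin, and the opioid receptor gene Oprk1 had at most 0.290 RPM in MOG KO and 0.368 RPM in WT. Pomc, Pcsk1, Oprd1 and Oprm1 had 0 counts, and Cpe, the carboxypeptidase that trims the cut peptides, at most 2.29 RPM in MOG KO and 2.94 RPM in WT.

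Across the genotype comparison, 5 of the 10 genes had enough counts to be tested (Izumo1r, Capg, Cd81, Swap70 and Ecm1), and 0 of them passed an adjusted p of 0.05 in edgeR, where 0% of all 4088 genes tested passed. Their values were 2 positive and 3 negative with a median log2 fold change of -0.31, beside a median of 0.06 over all genes tested. None had an unadjusted p under 0.05, against 5.11% of all genes tested, and limma-voom also called 0 of the 5 and 0% of all genes. Its log2 fold changes were further from 0, at -1.0 for Izumo1r, 0.35 for Capg, 1.07 for Cd81, -5.92 for Swap70 and -2.21 for Ecm1. With no filter on low counts Gpr83, Socs2 and Penk entered the fit, at log2 fold changes of 8.45, 8.60 and -9.65. Their unadjusted p-values were 0.0522, 0.0449 and 0.0436, where 9.21% of 12317 genes were under 0.05, and each had an adjusted p of 0.449 in edgeR.

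DESeq2 differed. It gave 6 of the 10 genes an adjusted p and put 2 past the threshold, both higher in MOG KO, Socs2 (log2 fold change 8.63 ± 2.50, adjusted p = 0.00879) and Gpr83 (8.29 ± 2.76, adjusted p = 0.0227). It called 15% of the 4916 genes to which it gave an adjusted p, 5.49% as higher and 9.52% as lower in MOG KO. Swap70 and Penk had no p-value from it. Without MOG KO replicate 1, 2 or 3 it called 4, 1 or 2 of the genes, beside 22.6%, 22.7% or 22.2% of all genes with an adjusted p. Without WT replicate 1, 2 or 3 it called 3, 2 or 3, beside 24.4%, 24% or 24.5%. Gpr83 lost its call without MOG KO replicate 2 (adjusted p = 0.188 in DESeq2), and Swap70 and Ecm1 gained one without MOG KO replicate 1. Penk gained one without WT replicate 1 or 3. Socs2 kept its call in all 6 of these fits, including those in which 1 of the 2 remaining MOG KO libraries had almost no Socs2 reads. Socs2 and Gpr83, each read in 2 of 3 MOG KO libraries, were thus called by DESeq2 and did not pass in the edgeR fit without a filter on low counts. The filtered edgeR and limma-voom fits of all 6 libraries did not test them, and the groups of both genes overlapped.

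**Figure D2:**
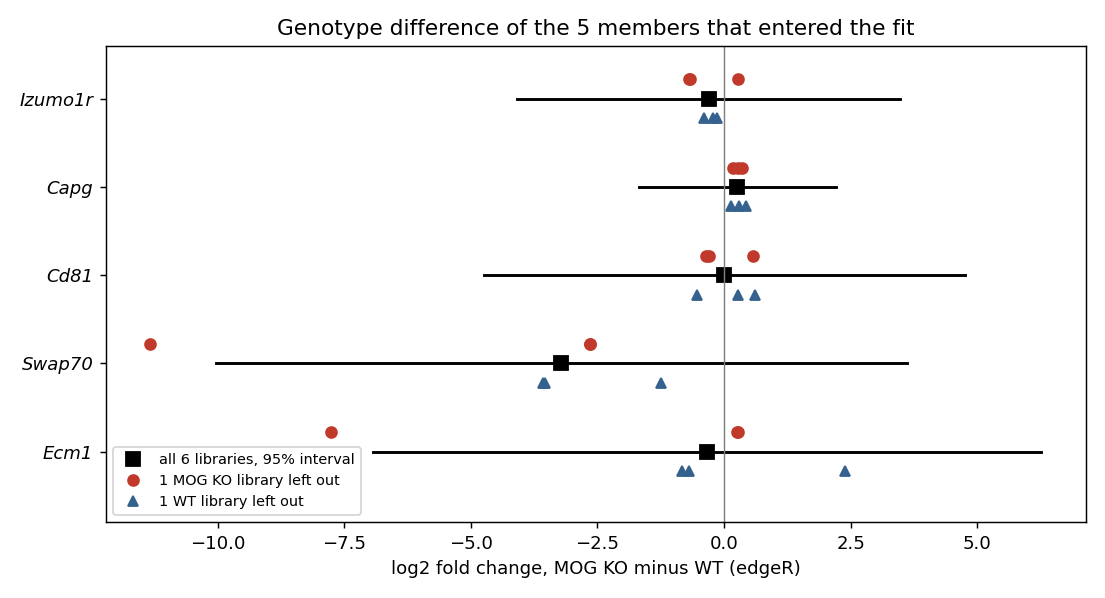
Log2 fold change (MOG KO minus WT, edgeR) of the 5 genes that were tested, with 95% intervals from all 6 libraries (black) and the values with 1 MOG KO library (red circles) or 1 WT library (blue triangles) left out. Every interval spans 0; Capg has the narrowest, -1.68 to 2.21, and Swap70 the lowest value, -3.21.

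In edgeR, 0 of the 5 genes tested thus differed between genotypes by more than the spread between libraries, and the intervals leave room for large differences in either direction. Without WT replicate 3, the library low in Foxp3, the log2 fold changes were -0.22 for Izumo1r, 0.44 for Capg, -0.53 for Cd81, -1.25 for Swap70 and -0.84 for Ecm1, and 0 passed.

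Presence was also counted for other genes of the Treg programme, in a list likewise chosen with earlier results of these data known. Of 35 listed, among them the lineage factors and receptors set aside above, 15 (42.9%) were present in all 6 libraries, against 2 of the 10 genes (20%) and 704 of all 23725 genes (2.97%). Among the 26 tested 0 passed, with 11 positive and 15 negative values and a median of -0.1. DESeq2 also called 0 of the 25 to which it gave an adjusted p. Il2ra, Ctla4 and Ikzf2 were present in all 6 libraries, and Foxp3 in all but WT replicate 3. The members of smallest p were Nrp1 (-1.35 ± 0.65), a semaphorin receptor of thymic Tregs, Ikzf4 (-4.37 ± 3.58), a partner factor of Foxp3, Gzmb (1.79 ± 1.54), which encodes the cytotoxic protease granzyme B, and Gbp4 (0.85 ± 0.84), an interferon-induced GTPase (log2 fold change ± SE, n = 3 per group; adjusted p = 1.00 for each in edgeR).

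**Figure D3:**
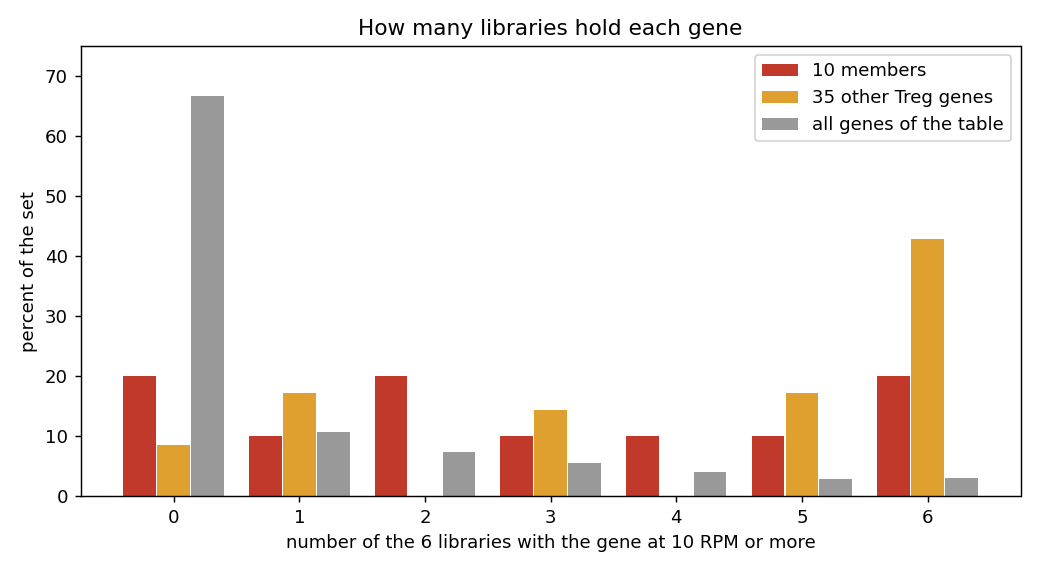
Percent of each set of genes that was at 10 RPM or more in 0 to 6 of the 6 libraries, for the 10 genes described here (red), 35 other Treg genes (orange) and all 23725 genes (grey). The 10 genes spread over every number of libraries, whereas 42.9% of the other Treg genes were present in all 6.

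Pairs of the 8 genes that were read shared few patterns. Of 28 pairs, 1 had the same state in all 6 libraries, Izumo1r with Capg, both always present. At the other end, Gpr83 and Swap70 were never present together and never absent together, with Gpr83 in MOG KO replicates 2 and 3 and Swap70 in the other 4 libraries. Swap70 and Ecm1 had the same state in 5 libraries, and so did Cd81 with each of Izumo1r and Capg. These counts describe 6 libraries that share their processing and carry no test.

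**Figure D4:**
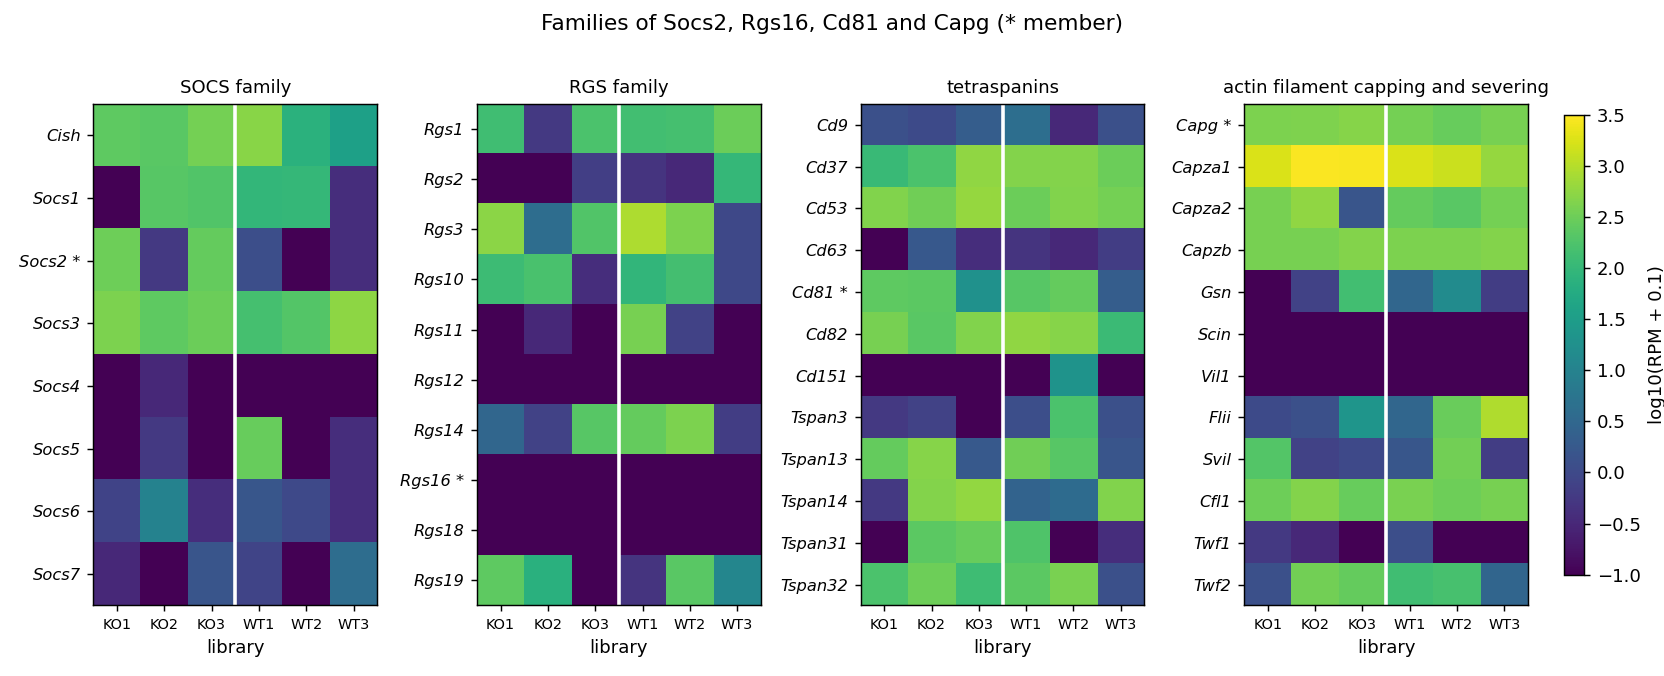
Level of the relatives of Socs2, Rgs16, Cd81 and Capg (each marked with an asterisk) in each library, as log10(RPM + 0.1), with MOG KO replicates left and WT replicates right of the white line. Socs3 and Cish, Cd53, Cd82 and Cd37, and Capza1, Capzb and Cfl1 are bright in all 6 libraries, whereas every RGS gene is dark in at least 1.

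Levels of different genes were compared per kilobase of annotated exon. Capg had 155 ± 26.3 RPM per kilobase, Izumo1r 99.6 ± 49.8, Cd81 56.5 ± 41.5 and Ecm1 42.8 ± 60.7 (mean ± SD over 6 libraries). Penk, Gpr83, Socs2 and Swap70 followed with 26.7 ± 64.3, 15.9 ± 34.1, 10.4 ± 16.1 and 5.47 ± 8.86 RPM per kilobase. Capg exceeded Izumo1r in 5 of 6 libraries, by 55.0 RPM per kilobase on average, more than the SD of either. Each later neighbour in this order differed by less than the larger of the SDs of the pair.

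The stretch before the start of Swap70 was the only one, of 8 of the 10 genes with a promoter in the table, to hold the forkhead motif TGTTTAC on either strand, which 3.17% of all 32851 stretches of the same length hold. It is shown with that motif in capitals, together with a match to the core NFAT motif GGAAA, which 55.6% of the stretches hold (RefSeq, GRCm38.p6, chr7:110221453-110221702, plus strand).
Swap70: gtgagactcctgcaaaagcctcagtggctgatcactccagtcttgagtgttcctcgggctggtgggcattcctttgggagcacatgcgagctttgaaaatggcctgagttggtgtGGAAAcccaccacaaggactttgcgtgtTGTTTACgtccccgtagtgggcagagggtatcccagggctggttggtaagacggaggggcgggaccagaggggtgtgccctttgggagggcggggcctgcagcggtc
The only match to the AP-1 motif TGANTCA was before Ecm1 (6.75% of all stretches hold it), shown likewise with 2 matches to GGAAA (chr3:95739570-95739819, minus strand).
Ecm1: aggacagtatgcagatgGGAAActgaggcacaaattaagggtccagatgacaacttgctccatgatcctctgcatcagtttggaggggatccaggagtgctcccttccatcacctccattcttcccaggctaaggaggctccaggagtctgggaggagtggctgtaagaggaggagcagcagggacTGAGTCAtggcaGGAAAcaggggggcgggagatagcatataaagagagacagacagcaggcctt
GGAAA was also found before Izumo1r, and the STAT motif TTCNNNGAA before none of the 8, where 7.02% of all stretches hold it. The genes without a promoter there were Socs2 and Penk, so no motif was searched for before them. Both strands were searched, and GGAAA did not overlap the other motifs in these stretches. The stretches before Rgs16 and Plagl1, which were not read, have 17 and 19 CpG, and that before Capg, which was read everywhere, has 7. Those before Cd81, Swap70 and Ecm1, present in 5, 4 and 3 libraries, have 16, 9 and 1 CpG. No relation of CpG number to presence was tested. The RefSeq starts of Capg and Plagl1 lie 5256 and 30328 bases inside the GENCODE genes, which also hold starts further upstream, and those of the other 6 genes lie within 182 bases of the GENCODE start. A match describes the letters of the window and nothing about binding.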

How the data were processed

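Total RNA from 500 cells per library was copied with the SMARTer V3 kit, amplified by 15 PCR cycles and sequenced as single reads of 100 bases, per the labels' protocols. There are no molecular identifiers, so PCR copies count as reads. The authors deposited raw counts of exon reads per gene and the same data as RPM, and dividing each count column by its total gave the deposited RPM within 1e-06. STAR 2.3.1, R 3.2.2 and build mm10 are named, per the submitters' processing notes. No source used here gives the counting method, the strand setting or the gene models. Without strand, reads of a gene and of its antisense partner cannot be told apart, which concerns Cd81, Swap70, Rgs16, Plagl1 and Penk, each overlapped by an annotated RNA on the other strand.

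All 23725 genes entered edgeR 4.0.16 (R 4.3.3): filterByExpr (4088 genes kept), TMM, robust quasi-likelihood fit on genotype alone, Benjamini-Hochberg adjustment over all genes tested, threshold 0.05. The SE was derived from each log2 fold change and its F statistic and is approximate. Alternatives were other scalings and filters, DESeq2 1.42.0, limma-voom (limma 3.58.1), the replicate number as a block and leaving out each library. The fits were tested on simulated counts. Counting intervals of pooled ratios are exact 95% binomial intervals. They take each read as independent, although PCR copies count as reads, so they may be too narrow even for counting error. Coordinates and exon lengths are from GENCODE M21 (GRCm38), matched by Entrez identifier, and motifs from RefSeq promoters. All 10 genes are named whatever their values. Of the other Treg genes, 4 fixed names and the 4 of smallest p are named, and of each family up to 4 genes of highest mean RPM; relatives given beyond these, such as the genes at 0, were named after their values were seen. The members and lists were chosen with earlier results of these data known. 2 of the cell markers listed (Jchain and Hba-a1) were not found under those symbols, another is not reported here, and red blood cell markers summed to 20.6 to 67.5 RPM in MOG KO and 69.7 to 151 RPM in WT.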

Additional observations from a re-analysis of the deposited data

How the results depend on the processing

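Of 60 alternative values of the 5 tested genes, 52 kept their direction and 8 reversed; 59 had an adjusted p, of which 0 passed, and 1, Swap70 in DESeq2, had none. Izumo1r was 0.27 without MOG KO replicate 3 (range with 1 library left out, -0.69 to 0.27). Cd81 was -0.011 with no filter on low counts, -0.29 and -0.36 without MOG KO replicates 1 and 2, and -0.53 without WT replicate 3 (range -0.53 to 0.62). Ecm1 was 0.25 and 0.27 without MOG KO replicates 2 and 3 and 2.38 without WT replicate 1 (range -7.77 to 2.38). The cause was not tested beyond the libraries left out. DESeq2 called 738 genes where edgeR called 0 (209 at an unadjusted p under 0.05), and 2 of the 10 genes where edgeR called 0; leaving out 1 library gave 0 of the 10 in edgeR and 1 to 4 in DESeq2 (4, 1, 2, 3, 2 and 3 genes), where the DESeq2 fits were chosen after seeing the data. Genes present in all libraries were 2 of 10 at 10 RPM, 3 at 1 RPM and 1 at 50 RPM, and 2 to 3 with 1 library left out. Same-numbered libraries did not deviate together (correlations of -0.0222, -0.00215 and -0.0176). Libraries can be paired without deviating together, so this cannot tell whether the numbers mark pairs, and the labels do not say. With the replicate block 0 genes passed, Izumo1r was -0.98, Cd81 0.89, Swap70 -8.20 and Ecm1 -2.03. In limma-voom these were -1.0, 1.07, -5.92 and -2.21. DESeq2 gave 0.12 for Capg, 0.30 for Cd81 and -0.19 for Ecm1, and its size factors in edgeR 0.20 for Cd81. The DESeq2 fits with 1 library left out are not among the 60 values, and in them Capg was -0.13 without WT replicate 2. Depth sets the floor, 0.671 to 1.10 RPM, which covers counting error only and lies below the 10 RPM at which a gene was called present. SEs were 2.93 for Swap70, 2.83 for Ecm1 and 0.84 for Capg, and what sets their width was not tested.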
